A study of Mus musculus with 14 samples.

Results

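Ter cells of the spleen were set against haematopoietic stem cells (HSC) of the bone marrow, gene by gene, by RNA sequencing. Spleen Ter cells are Ter-119+ and negative for CD45 and lineage markers, and were taken from mice that carried tumors. HSC are c-Kit+, Sca-1+ and lineage-negative, and came from the marrow of wild type mice without a tumor label. All animals were C57BL/6 with a wild type genotype, and sorted cells had a stated purity above 98%. The series holds 14 samples in 7 groups of 2, and the other groups were CLP, MEP and CMP of the marrow, Ter cells of E14.5 embryonic liver, and a CD45+ Ter-119- spleen control. The sources used here do not give the kind of tumor, the number, age and sex of the mice, or any pooling, and no label ties the 2 samples of each group to different mice.

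Of 49583 genes in the table, 14485 had at least 1 FPKM (fragments per kilobase of exon, scaled to library size) in spleen Ter or in HSC. From these, 246 genes were set aside because they were high in HSC, CLP and the CD45+ control and near 0 in all 4 other columns, which leaves 14239 genes compared. The difference is log2(FPKM + 1) of spleen Ter minus log2(FPKM + 1) of HSC, taken between the authors' means of 2 samples. A gene is called higher or lower in spleen Ter where this difference is at least 1 in size, that is 2-fold on the FPKM + 1 scale, which understates the change of genes with low values. HSC have 1 mean without an error, so these are sizes and no test could be made.

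Haematopoietic stem cells sit at the top of blood formation: they divide to renew themselves and give rise to progenitors of the lymphoid, myeloid, megakaryocytic and erythroid lines. Ter-119 is an antigen that appears on erythroid cells once globin and heme synthesis are under way and stays on the mature red cell. In the adult mouse the spleen is a site of red cell formation beside the marrow, in particular under stress, and it is also a lymphoid organ and the place where macrophages clear old red cells.

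The columns come in 2 number formats. In the 4 columns of Ter cells, MEP and CMP, 87.1% to 89.8% of low values were sums of whole fragments, and the share of FPKM in processed pseudogenes was 0.44% to 1.52%. In HSC, CLP and the CD45+ control, 0.0% to 0.1% of low values were, and that share was 6.1% to 8.02%. This difference runs along the comparison of spleen Ter with HSC and cannot be told apart from it. The digits of the spleen Ter mean allowed its 2 libraries to be recovered for 96.4% of compared genes. They are called A, with 15107437.5 fragments, and B, with 14545383, and they carry no replicate number. The depth of the HSC samples is unknown. The columns labelled MEP and CMP go against their labels for Cd34, which is 0.0694 FPKM in the MEP column, labelled CD34+, and 29.7 in the CMP column, labelled CD34-. In bulk RNA, fewer cells of a type and less RNA per cell cannot be told apart, and this holds for every cell type named below.

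The recovered spleen Ter libraries were not alike. Of 13728 genes, 3185 (23.2%) were more than 2-fold apart, 565 with library A above B and 2620 with library A below B. Red cell genes were mostly above in library A, and macrophage genes were mostly below in it, as given under each group.

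The sexes of the animals are not labelled, and sex-linked transcripts ran along the comparison. Xist, the RNA that silences an X chromosome in female cells (chromosome X, 103460366 to 103483254), had 0 fragments in both spleen Ter libraries, against a mean of 54.3 FPKM in HSC. Ddx3y, a Y-linked RNA helicase (chromosome Y, 1260771 to 1286629), had 14.51 and 27.3 FPKM in spleen Ter libraries A and B and was listed at 0 in HSC. Eif2s3y, a Y-linked translation factor, had 16.0 and 31.7 FPKM in spleen Ter and was listed at 0 in HSC. Both spleen Ter libraries lay on the same side of the HSC mean for each of these genes, and that mean has no spread to compare. Over all recovered genes, 7.71% were higher and 26.8% were lower in both libraries. Among the other columns, Xist was 43.2 FPKM in CLP, 19.8 in the CD45+ control and 22.1 in liver Ter, and 0.00391 or less in MEP and CMP. Ddx3y was 13.4 FPKM in CMP, 6.29 in MEP and 1.38 in liver Ter, and was listed at 0 in CLP and in the control. The sex-linked genes were picked after their values were seen. On the X chromosome as a whole, 32 of 464 compared genes were higher in spleen Ter (6.9%) and 207 were lower (44.6%), against 14.4% and 33.0% of all compared genes. Sex, organ, tumor and number format cannot be told apart between spleen Ter and HSC.

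**Figure D1:**
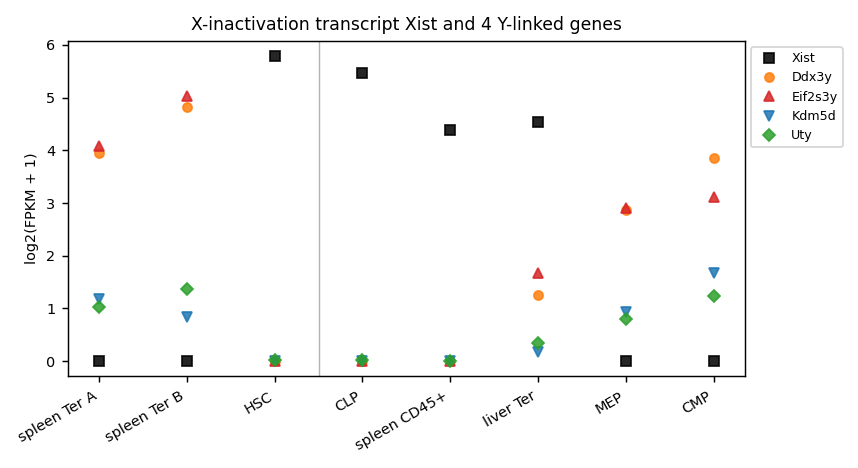
Levels of Xist and 4 Y-linked genes as log2(FPKM + 1), with the 2 recovered spleen Ter libraries at the left, then the HSC mean and the means of the other 5 groups. Both spleen Ter libraries hold Ddx3y and Eif2s3y and no Xist, while HSC hold Xist at 54.3 FPKM and no Ddx3y.

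Of all compared genes, 2053 (14.4%) were higher in spleen Ter, 4700 (33.0%) were lower, and 7486 lay within 2-fold. The median difference was -0.48, so a list with a median near -0.48 stands where the genes as a whole do. The balance depends on scaling: 30.4% of the called genes were higher as deposited, 45.1% after scaling by the median of ratios, which moves the median to -0.15, and 50.4% after quantile normalization, which moves it to -0.04. With library A alone the median was -0.79, with 1432 of 13728 recovered genes higher (10.4%) and 5781 lower (42.1%). With library B alone it was -0.30, with 2321 higher (16.9%) and 4166 lower (30.3%). In both libraries 1058 of 13728 genes (7.71%) were higher and 3682 (26.8%) were lower, and 23 were higher in 1 library and lower in the other. Each list count below is to be read beside the 14.4% and 33.0% of all compared genes. A list count from library A or B alone is to be read beside the shares of that library. A level of at least 1 FPKM in spleen Ter with under 0.1 in HSC was found for 537 genes, and the converse for 792.

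**Figure D2:**
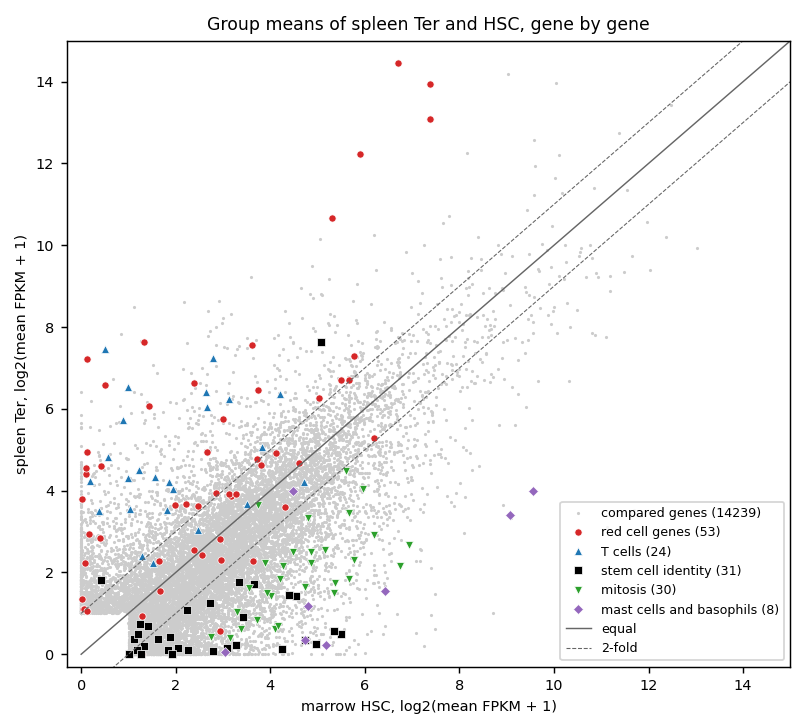
Mean level of each of the 14239 compared genes in spleen Ter (vertical) and in HSC (horizontal), both as log2(FPKM + 1), with 5 groups of genes marked and lines at equality and at 2-fold. Most red cell and T cell genes lie above the line of equality, and nearly all mitosis, stem cell and basophil genes lie below it.

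The genes that define the sorted cells went partly with the labels. Slc4a1, the anion exchanger of the red cell, had 44.3 and 2.07 FPKM in libraries A and B of spleen Ter, against 0.330 in HSC, so both libraries were above HSC. Kit, the receptor that the HSC gate uses, had 0.490 and 2.91 FPKM in spleen Ter, against 22.3 in HSC. Ly6a, which encodes Sca-1, went the other way: it had 150 and 245 FPKM in spleen Ter, against 32.5 in HSC. Spleen Ter cells, sorted as CD45- and lineage-negative, also held T cell, B cell and neutrophil transcripts, such as Cd3e at 13.0 and 22.9 FPKM, Ms4a1 at 53.3 and 55.3, and Ly6g at 102 and 16.3. In HSC these 3 genes had 0.139, 5.97 and 17.8 FPKM. The CD45 gene Ptprc was not analysed here. Of 19 genes for antigens used in the sorts, 7 were higher in spleen Ter and 4 were lower, with a median of 0.55, and of -0.14 and 0.85 with library A or B alone. The HSC column held stem cell genes such as Cd34 at 44.4 FPKM, Hlf at 7.45 and Procr at 2.09. Slamf1, also of the stem cell list, was under 1 FPKM in HSC and higher in spleen Ter, as given below. The HSC column also held lymphoid precursor genes such as Dntt at 416 and Vpreb1 at 152, and mature myeloid genes such as S100a9 at 5728. What part cells other than those named by the sort have in the differences was not tested.

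Many red cell genes stood far above HSC in spleen Ter, led by the adult globins, the protein chains of hemoglobin. Hbb-bs, a beta-globin gene (ENSMUSG00000052305, mm10 chromosome 7, 103826534 to 103828096), averaged 22390 FPKM in spleen Ter and 102.5 FPKM in HSC, a log2 difference of 7.76. Hba-a1, an alpha-globin gene (ENSMUSG00000069919, chromosome 11, 32283511 to 32284465), averaged 15630 and 166.3 FPKM, a difference of 6.55. Hbb-bt averaged 4779 and 58.6 FPKM, and Hba-a2 8640 and 166.5, with differences of 6.32 and 5.69. All 4 adult globin genes with a value were higher, with a median of 6.43, and their share of FPKM was 13.7% in spleen Ter and 0.122% in HSC. Hba-a1 and Hba-a2, like Hbb-bs and Hbb-bt, are near-identical copies, so their split is uncertain, and the globin means could not be divided into libraries A and B. The 4 embryonic globin genes were all under 1 FPKM in spleen Ter and in HSC.

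Promoters of 3 red cell genes from the text are printed as examples of genes far above HSC in spleen Ter whose window holds a GATA motif. Each runs from 250 bases before to 50 after the gene's start, taken from RefSeq (GRCm38.p6), 5′ to 3′ on the strand of the gene. The motif AGATAA, or TTATCT on the other strand, is a form of the site that GATA1, the main erythroid transcription factor, binds; it is in capitals. Hbb-bs lies at chr7:103827879-103828178 on the minus strand, Alas2 at chrX:150547167-150547466 on the plus strand and Trim10, which encodes an erythroid TRIM protein, at chr17:36869324-36869623 on the plus strand.
Hbb-bs: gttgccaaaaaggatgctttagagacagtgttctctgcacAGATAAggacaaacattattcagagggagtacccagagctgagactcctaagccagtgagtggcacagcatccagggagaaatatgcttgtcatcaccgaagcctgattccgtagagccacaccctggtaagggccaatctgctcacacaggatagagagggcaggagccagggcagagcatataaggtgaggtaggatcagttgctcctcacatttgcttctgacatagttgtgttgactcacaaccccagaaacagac
Alas2: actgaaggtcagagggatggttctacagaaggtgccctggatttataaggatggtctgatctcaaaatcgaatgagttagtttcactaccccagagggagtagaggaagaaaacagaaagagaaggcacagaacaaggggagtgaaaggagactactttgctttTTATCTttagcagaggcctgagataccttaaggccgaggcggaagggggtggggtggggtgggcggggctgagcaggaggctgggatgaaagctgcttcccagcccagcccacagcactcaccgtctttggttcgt
Trim10: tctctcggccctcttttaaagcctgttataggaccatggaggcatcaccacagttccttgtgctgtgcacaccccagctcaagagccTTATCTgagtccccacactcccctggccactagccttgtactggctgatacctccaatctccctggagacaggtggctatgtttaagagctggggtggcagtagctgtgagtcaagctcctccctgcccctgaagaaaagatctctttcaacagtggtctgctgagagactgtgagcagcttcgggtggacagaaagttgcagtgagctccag
Each of the 3 windows has 1 match. The motif was in 2 of 9 heme synthesis promoters, 4 of 12 red cell membrane promoters, 1 of 4 adult globin promoters and 1 of 11 red cell enzyme promoters, against 603 of 9189 promoters of compared genes (6.56%) and 3067 of all 27025 promoters (11.3%). CCACACCC, a letter string bound by the erythroid factor KLF1, was in 1 of the 4 adult globin promoters, that of Hbb-bs, and in none of the heme, membrane and enzyme promoters, against 3.96% of promoters of compared genes. A match describes the letters of the window only.

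Heme, the iron-holding group of hemoglobin, is made by a chain of enzymes that starts with ALAS2 in erythroid cells. Of 12 heme synthesis and transport genes, 7 were higher in spleen Ter and none was lower, with a median of 1.05. Alas2 (ENSMUSG00000025270, chromosome X, 150547375 to 150570638) had 366 and 32.3 FPKM in libraries A and B of spleen Ter, against 1.502 in HSC, a log2 difference of 6.32. Both libraries were above HSC, and library A was above B. Ppox and the glycine carrier Slc25a38 were alike in the 2 libraries, with Ppox at 11.2 and 11.4 FPKM in spleen Ter and 4.51 in HSC. Abcb10, a mitochondrial transporter, was the member nearest to HSC, with 6.58 and 3.11 FPKM in spleen Ter against 4.26. Fech, the enzyme that inserts iron, averaged 52.7 FPKM in spleen Ter and 7.002 in HSC, a difference of 2.75. Among the 10 genes recovered, 8 were higher with library A alone, with a median of 1.31, and 3 with library B alone, with a median of 0.22.

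Red cell membrane genes were higher in spleen Ter mainly through library A. Of 18 compared, 11 were higher in spleen Ter and 1, Icam4, was lower, with a median of 1.22. Among genes measured in both number formats 2 were higher, with a median of 0.66. The higher genes that dropped out there were under 1 FPKM in HSC, CLP and the control, so they were compared through spleen Ter alone. Over the list the median was 3.62 with a pseudocount of 0.1 FPKM, 0.54 with a pseudocount of 5 FPKM and 3.28 with a minimum of 5 FPKM. Rhd, a Rhesus antigen gene, had 40.1 and 0.0431 FPKM in the 2 libraries, the second being 1 fragment, against 0.0720 in HSC, and a log2 difference of 4.30 from the mean. Slc4a1, whose levels are given above, had a difference of 4.18. Cldn13, a claudin of mouse erythroid cells, had 59.1 and 0.322 FPKM against 0.0844 in HSC. Library A was at least 2-fold above library B for 14 of the 18 genes, and for none was it 2-fold below. With library A alone 13 were higher, with a median of 1.83, and with library B alone 2, Slc4a1 among them, with a median of 0.12, a share no larger than the 16.9% of all recovered genes. Sptb, a spectrin gene, had 2.01 and 0.181 FPKM in the 2 libraries and under 0.1 in HSC. Icam4 had 0 fragments in both libraries and 1.44 FPKM in HSC, and Gypc, glycophorin C, was below HSC but within 2-fold, at 10.5 and 11.9 FPKM in spleen Ter against 18.8 in HSC.

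Of 19 red cell enzymes and maturation genes, 12 were higher and 2 were lower, with a median of 1.25. Gpx1, a glutathione peroxidase that protects hemoglobin from peroxide, averaged 1630 FPKM in spleen Ter and 38.3 in HSC, a difference of 5.38. Bpgm, which makes the 2,3-bisphosphoglycerate that lowers hemoglobin's affinity for oxygen, had 185 and 12.8 FPKM in spleen Ter against 4.24 in HSC. The carbonic anhydrase gene Car1 had 116 and 16.4 FPKM in spleen Ter against 1.70 in HSC. For Bpgm and Car1 both libraries were above HSC, with library A the higher. Trim10, whose promoter is printed above, had 43.6 and 1.65 FPKM against 0.0731. Gmpr and Alox15 were the lower members: Gmpr had 0.991 and 0 FPKM in spleen Ter against 6.65 in HSC, and Alox15, a lipoxygenase, had 0.486 and 7.31 against 11.4. With library A alone 11 of 18 recovered genes were higher, with a median of 1.91, and with library B alone 7, with a median of 0.18.

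Transcription factors of the erythroid line were, as a list, not higher in spleen Ter. Of 18, 1 was higher, 8 were lower and 9 lay within 2-fold. Their median was -0.45, close to the -0.48 of all genes, and -0.82 and -0.98 with library A or B alone. It was -0.02 after scaling by the median of ratios and -0.93 with a minimum of 5 FPKM, against -0.15 and -0.55 for all genes. Klf1, an activator of the adult beta-globin gene (chromosome 8, 84901928 to 84905291), was the higher one, with 17.5 and 0.584 FPKM in spleen Ter against 0.666 in HSC, so that library B was at the level of HSC. Gata1 averaged 3.02 FPKM in spleen Ter, with 4.97 in library A and 1.07 in library B, and 3.0 FPKM in HSC. The factors with roles in stem cells were among the lower: Lyl1 had 3.97 and 7.14 FPKM against 90.8 in HSC, a difference of -3.81, and Tal1 had 1.77 and 2.01 against 9.92. Of 13 genes of iron uptake and storage, 2 were higher and 3 were lower, with a median of -0.56, and of -1.42 and -0.31 with library A or B alone. Fth1, the ferritin heavy chain, averaged 3213 FPKM in spleen Ter and 1037 in HSC. Tfrc, the transferrin receptor that takes up iron in erythroid precursors, had 17.8 and 5.22 FPKM in spleen Ter, against 24.0 in HSC. Slc40a1, the iron exporter of macrophages, was higher, with 4.99 and 29.6 FPKM in spleen Ter against 6.33 in HSC, library A being below HSC. Trf, transferrin, had 0.179 and 3.09 FPKM against 36.8 in HSC, a difference of -3.85.

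**Figure D3:**
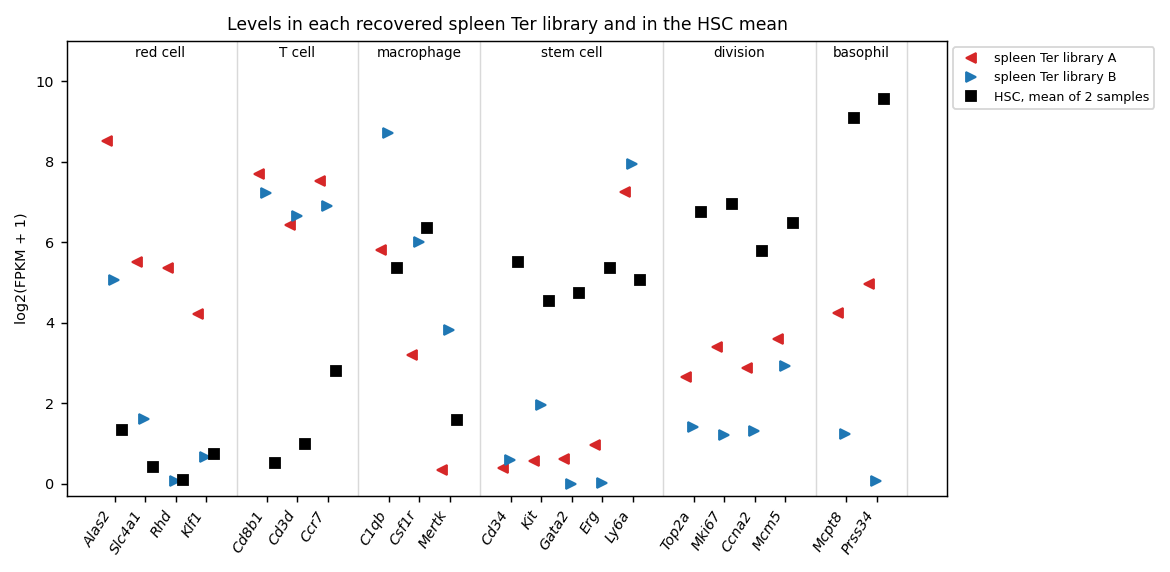
Levels of 21 genes as log2(FPKM + 1), grouped by the cell type or process they mark, in spleen Ter library A, spleen Ter library B and the HSC mean. Library A holds more of the red cell genes than library B and less of the macrophage genes, and both libraries lie below HSC for Cd34, Gata2, Top2a and Prss34 and above HSC for Cd8b1 and Ly6a.

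Stem cell identity genes were low in both spleen Ter libraries. Of 31 compared, 25 were lower in spleen Ter and 2 were higher, with a median of -1.75, and 21 were lower in both libraries, against 26.8% of all recovered genes. Cd34, a surface sialomucin of progenitors (ENSMUSG00000016494, chromosome 1, 194938819 to 194961279), had 0.318 and 0.4998 FPKM in spleen Ter, against 44.4 in HSC, a difference of -5.01 on 35 and 53 fragments. Erg, a transcription factor needed for stem cell maintenance, had 0.936 and 0.0198 FPKM against 39.8, a difference of -4.79. Angpt1, a ligand of the receptor Tek, had 0.373 and 0.0162 FPKM against 30.4 in HSC. Gata2, a factor for stem cell survival (chromosome 6, 88193891 to 88207032), had 0.540 and 0 FPKM against 25.5 in HSC, a difference of -4.38. Both libraries lay below the HSC mean for these 4 genes, which are members with large differences. The HSC mean has no spread to compare. The homeobox gene Hoxa9 had 0.107 and 0 FPKM in spleen Ter, against 5.91 in HSC, and Hoxa10 had 0 fragments in both libraries, against 1.41 FPKM. Meis1, a partner of HOX proteins, had 0.101 and 0.0457 FPKM against 3.79 in HSC, and Hlf had 0.0495 and 0.185 against 7.45. Kit, given above, had a difference of -3.11.

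The 2 stem cell genes that were higher were Ly6a and Slamf1, and which cells their transcripts come from was not tested. Ly6a (chromosome 15, 74994877 to 74998031) had a difference of 2.57. It was 104 FPKM in the CD45+ spleen control, which is below both spleen Ter libraries and is in the number format of HSC. Reads of the Ly6 family can be shared among its copies. Slamf1, which encodes CD150, had 1.69 and 3.30 FPKM in spleen Ter, against 0.331 in HSC, a difference of 1.39. The genes within 2-fold were all low in HSC, such as Esam at 1.29 FPKM and Cdkn1c at 1.65. Against the columns labelled CMP and MEP, which are in the number format of spleen Ter, the same list had medians of -0.64 and 0.09.

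Genes of lymphoid-primed progenitors included some of the lowest in spleen Ter. Of 21, 3 were higher and 10 were lower, the 10 in both libraries, with a median of -0.66. Over the 20 recovered genes the median was -2.21 with library A alone and -1.22 with library B alone. Dntt, the terminal transferase that adds bases at antigen receptor joints (ENSMUSG00000025014, chromosome 19, 41029275 to 41059525), had 0.529 and 1.49 FPKM in spleen Ter, against 416 in HSC, a difference of -7.70. Vpreb1 and Igll1, which form the surrogate light chain of precursor B cells, had 0.297 and 0.0306 FPKM in library A and 0 fragments in library B, against 152 and 63.1 FPKM in HSC. Rag1 and Rag2, the recombinase of antigen receptor genes, and Vpreb2 had no fragment in either library of spleen Ter; in HSC they had 40.8, 8.93 and 42.4 FPKM. These early lymphoid genes were all but missing from spleen Ter and were also high in CLP, where Rag1 was 91.4 FPKM. Sox4 had 0.469 and 1.46 FPKM in spleen Ter, against 101.9 in HSC, a difference of -5.71, with most of its annotated exon bases shared with another gene. Flt3, the receptor of lymphoid-primed progenitors, had 2.35 and 3.61 FPKM against 55.0, a difference of -3.82. The higher members are genes of mature lymphocytes and leukocytes as well: Ighm averaged 3915 FPKM in spleen Ter and 772.3 in HSC, Lsp1 had 113 and 99.9 FPKM against 44.6, and Mef2c averaged 12.6 against 4.35. The part of mature cells in these levels was not tested.

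Of 19 myeloid progenitor genes, 1 was higher and 9 were lower, with a median of -0.82. Mpo, the myeloperoxidase of granulocyte precursors, had 40.4 and 6.08 FPKM in spleen Ter, against 340 in HSC, a difference of -3.81. Cebpa, a factor for myeloid commitment, had 0.728 and 1.17 FPKM against 25.0. Nkg7, a granule protein also made by cytotoxic lymphocytes, was the higher one, with 387 and 369 FPKM against 68.9. Mast cell and basophil genes were lower for 7 of 8, with a median of -4.63, and all 7 were lower in both libraries. Prss34, a basophil protease (chromosome 17, 25298394 to 25300165), had 29.9 and 0.0565 FPKM in spleen Ter, against 756 in HSC, a difference of -5.57. Mcpt8, another basophil protease (chromosome 14, 56082166 to 56085273), had 17.9 and 1.37 FPKM against 539 in HSC, a difference of -5.67. Cpa3 and the IgE receptor chain Ms4a2 had at most 3.80 and 0.329 FPKM in either spleen Ter library, against 84.5 and 35.0 in HSC. Hdc, which makes histamine, was the member within 2-fold, at 18.5 and 11.2 FPKM in spleen Ter against 21.3. The summed level of the list was 43.6 FPKM in spleen Ter and 1496 in HSC, and the part of basophils in these differences was not tested.

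T cell genes were the list with the largest median above HSC after the adult globins among lists with at least 3 compared genes, at 2.95. With a pseudocount of 0.1 FPKM or a minimum of 5 FPKM the red cell membrane list stood above it, at 3.62 or 3.28 against 3.25 or 3.13 for T cell genes. Of 24 compared, 20 were higher in spleen Ter and none was lower, and 16 of 23 recovered were higher in both libraries, against 7.71% of all recovered genes. Cd8b1, the beta chain of CD8 (ENSMUSG00000053044, chromosome 6, 71322788 to 71337494), had 205 and 148 FPKM in spleen Ter, against 0.427 in HSC, a difference of 6.96. Cd3d and Cd3g, chains of the T cell receptor complex, had 85.1 and 98.6, and 47.1 and 56.6 FPKM in spleen Ter, against 0.991 and 0.860 in HSC. Ccr7, the receptor that brings lymphocytes to lymphoid zones, had 181 and 118 FPKM against 5.92. The 2 libraries were both above HSC for these 4 genes, and they were closer to each other than for Alas2 or Slc4a1. Cd4 was nearer to HSC, with 2.36 and 12.02 FPKM in spleen Ter against 4.58, and Lef1 was nearest, with 7.71 and 15.6 against 10.3. The summed level of the list was 1022 FPKM in spleen Ter and 115 in HSC.

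B cell genes were higher for 14 of 19 and lower for 2, with a median of 1.77, and 13 were higher in both libraries. Cr2, a complement receptor of mature B cells, had 20.2 and 31.9 FPKM in spleen Ter, against 0.318 in HSC, a difference of 4.36. Bank1 had 29.2 and 43.1 FPKM against 1.86, and Ms4a1, which encodes CD20, 53.3 and 55.3 against 5.97. Cd79a, a chain of the B cell receptor, had 555 and 626 FPKM in spleen Ter, against 194 in HSC. Cr2, Bank1 and Ms4a1 had larger differences than Cd79a. The lower members were Vpreb3, of precursor B cells, with 22.7 and 33.8 FPKM against 154 in HSC, and Pax5, the B lineage factor, with 4.52 and 6.03 against 29.9. Immunoglobulin genes held 9.39% of FPKM in spleen Ter and 0.923% in HSC. Of 11 plasma cell genes, 6 were higher and 1, Sdc1, was lower, with 3 higher in library A alone and 7 in library B alone; Jchain, which joins IgA and IgM units, had 247 and 332 FPKM in spleen Ter against 54.9 in HSC. The B cell list summed to 2478 FPKM in spleen Ter and 949 in HSC.

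MHC class II genes, which present antigen in B cells, macrophages and dendritic cells, were higher for 9 of 11 and lower for none, with a median of 2.02. Cd74, the invariant chain, averaged 4860 FPKM in spleen Ter and 285.1 in HSC, a difference of 4.09. H2-DMb2 had 201 and 226 FPKM in spleen Ter against 10.4 in HSC, and Ciita, the master activator of the class, 9.81 and 19.2 against 2.82. Of the 7 genes recovered, 4 were higher with library A alone and 6 with library B alone. H2 genes have similar copies among which reads can be shared. Of 12 MHC class I genes, 4 were higher and none was lower, with a median of 0.24, and of -0.67 and 0.47 with library A or B alone.

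Neutrophil granule and surface genes were higher for 18 of 25 and lower for none, with a median of 1.34, although several were abundant in HSC as well. S100a9, a calcium-binding protein of neutrophils, averaged 10970 FPKM in spleen Ter and 5728 in HSC, a difference of 0.94, just under 2-fold. Retnlg, a resistin-like protein of neutrophils, had 1269 and 1155 FPKM in spleen Ter, against 72.0 in HSC, a difference of 4.06. Stfa2l1, a stefin (chromosome 16, 36156811 to 36161953), had 133 and 115 FPKM against 3.44, a difference of 4.82, and Il1r2, a decoy receptor for IL-1, 76.5 and 46.5 against 3.69. Both libraries were above HSC for these 3 genes. Ltf, of the secondary granules, averaged 315.4 FPKM in spleen Ter and 361.2 in HSC. Stefin genes are close copies and the split among them is uncertain. With library A alone 17 of 19 recovered genes were higher, and with library B alone 10. The list summed to 27400 FPKM in spleen Ter and 12320 in HSC.

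Macrophage and monocyte genes divided by library. Of 24, 13 were higher and 3 were lower in the mean, with a median of 1.09. With library A alone the median turned to -1.05, with 3 of 22 higher and 11 lower, and with library B alone it was 1.27, with 12 higher and 1 lower. C1qb, a chain of complement C1q made by tissue macrophages (chromosome 4, 136880129 to 136886187), had 54.6 and 414 FPKM in spleen Ter, against 40.2 in HSC. Csf1r, the receptor of the macrophage growth factor, had 8.09 and 62.6 FPKM against 80.8 in HSC, so that both libraries were below HSC. Mertk, a receptor for the uptake of dying cells, had 0.275 and 13.1 FPKM against 1.995, library A below HSC and library B above. Library A was at least 2-fold below library B for 18 of the 22 genes and 2-fold above for 1. Cd14, a receptor for bacterial lipopolysaccharide, had 71.0 and 57.0 FPKM in spleen Ter against 4.59 in HSC, a difference of 3.54. The list summed to 4402 FPKM in spleen Ter and 1799 in HSC. The part of macrophages in the difference between the libraries was not tested.

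Among NK and cytotoxic genes, 8 of 16 were higher and none was lower, with a median of 1.06, 7 with library A alone (median 0.56) and 11 with library B alone (median 1.32). Ccl5, a chemokine of cytotoxic lymphocytes, had 455 and 444 FPKM in spleen Ter against 27.8 in HSC, and Fasl, the ligand of the death receptor Fas, 9.02 and 17.4 against 0.616. Eomes, a factor of NK cells, was level at 2.21 and 0.976 FPKM against 1.60. Of 18 megakaryocyte and platelet genes, 7 were higher and 1 was lower, with a median of 0.75, and of 0.40 among genes measured in both number formats. The median was 0.41 with library A alone, with 3 lower, and 0.79 with library B alone, with 2 lower, and library A was at least 2-fold below library B for 7 of 17 genes. The platelet chemokine Ppbp had 17.1 and 24.7 FPKM in spleen Ter against 0.111 in HSC, and Pf4 38.8 and 53.7 against 3.84, both libraries above HSC. Of 12 dendritic cell genes, 2 were higher and 3 were lower, against 14.4% and 33.0% of all compared genes. The dendritic median was -0.38, and it was 0.04 after quantile normalization and -0.69 and -0.22 with library A or B alone. Cd83 was higher, with 147 and 121 FPKM against 15.9, and Flt3 and Itgax were lower, Itgax with 2.22 and 1.59 FPKM against 12.7.

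Genes of cell division were lower in spleen Ter almost throughout. Of 30 mitosis genes, 29 were lower and none was higher, with a median of -2.61, and 26 of 29 recovered were lower in both libraries, against 26.8% of all recovered genes. Top2a, the topoisomerase that untangles chromosomes (ENSMUSG00000020914, chromosome 11, 98992943 to 99024189), had 5.32 and 1.66 FPKM in spleen Ter, against 106.4 in HSC, a difference of -4.58. Mki67, the Ki-67 proliferation marker, had 9.43 and 1.33 FPKM against 121.8, a difference of -4.27. Ccna2, which encodes cyclin A2, had 6.39 and 1.48 FPKM against 53.7 in HSC. Cenpa, the histone of centromeres, was the mitosis gene within 2-fold, at 13.9 and 9.28 FPKM in spleen Ter against 12.3 in HSC. Library A was above library B for 26 of the 29 genes, and both were below HSC for the 3 genes given before Cenpa.

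Promoters of 3 mitosis genes are shown with the letters CCAAT, or ATTGG on the other strand, in capitals, since this string, the site of the factor NF-Y, recurs in the promoters of genes of the late cell cycle. They are from RefSeq (GRCm38.p6) over the same window of 300 bases. Top2a lies at chr11:99024140-99024439 on the minus strand, Ccnb2, which encodes cyclin B2, at chr9:70421505-70421804 on the minus strand, and Cdc20, an activator of the anaphase-promoting complex, at chr4:118437294-118437593 on the minus strand.
Top2a: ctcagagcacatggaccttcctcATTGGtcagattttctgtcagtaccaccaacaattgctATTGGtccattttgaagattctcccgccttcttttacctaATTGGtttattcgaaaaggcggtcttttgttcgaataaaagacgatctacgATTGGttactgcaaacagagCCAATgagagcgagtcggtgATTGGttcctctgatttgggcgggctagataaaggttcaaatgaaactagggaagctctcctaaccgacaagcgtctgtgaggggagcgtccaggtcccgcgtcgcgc
Ccnb2: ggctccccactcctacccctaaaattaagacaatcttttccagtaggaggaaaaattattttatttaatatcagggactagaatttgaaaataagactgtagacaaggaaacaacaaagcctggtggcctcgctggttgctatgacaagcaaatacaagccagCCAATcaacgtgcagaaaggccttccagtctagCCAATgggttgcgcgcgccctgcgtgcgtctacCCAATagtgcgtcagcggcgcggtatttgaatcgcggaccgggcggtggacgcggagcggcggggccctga
Cdc20: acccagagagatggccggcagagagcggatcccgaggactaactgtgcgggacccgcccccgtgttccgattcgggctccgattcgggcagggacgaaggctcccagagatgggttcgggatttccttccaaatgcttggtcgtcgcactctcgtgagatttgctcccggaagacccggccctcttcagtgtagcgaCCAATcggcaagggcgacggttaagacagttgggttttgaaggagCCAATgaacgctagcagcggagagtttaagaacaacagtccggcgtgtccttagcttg
The windows hold 6, 3 and 2 matches. Of 25 mitosis promoters, 19 had a match (76.0%), with a mean of 1.72 matches per promoter, and of 30 DNA replication promoters 18 had one. The share was 39.1% over 9189 promoters of compared genes, with a mean of 0.62, 37.8% over all 27025 promoters, and 27.3% over 22 stem cell identity promoters. Among lists higher in spleen Ter, all 4 adult globin promoters had a match, with a mean of 1.5. So did 4 of 9 heme synthesis, 5 of 12 red cell membrane and 4 of 11 red cell enzyme promoters. The string is thus not particular to the genes of division. Ccnb2 had 27.7 and 3.05 FPKM in spleen Ter, against 61.2 in HSC, and Cdc20 had 10.74 and 9.20 against 50.1. Both libraries were below HSC for these 2 genes too.

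Of 37 DNA replication genes, 32 were lower and none was higher, with a median of -2.41, and 27 of 35 recovered were lower in both libraries. Uhrf1, which keeps DNA methylation through replication (chromosome 17, 56303321 to 56323486), had 4.10 and 3.57 FPKM in spleen Ter, against 92.6 in HSC, a difference of -4.27. The helicase subunit gene Mcm5 had 10.99 and 6.65 FPKM against 88.0, and Pcna, the sliding clamp, 56.5 and 43.9 against 174. Cdt1, which loads the helicase, was within 2-fold, at 17.3 and 23.2 FPKM in spleen Ter against 18.3 in HSC, and so were Gins4, Orc6, Rfc3 and Rfc4. Against the columns labelled CMP and MEP the mitosis list had medians of -2.19 and -2.71 and the replication list of -2.50 and -1.39.

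Of 21 cell cycle control genes, 12 were lower and 2 were higher, with a median of -1.40. Cdk6, a kinase of the G1 phase, had 1.76 and 2.08 FPKM in spleen Ter against 27.6 in HSC, a difference of -3.29. Cdkn2d, an inhibitor of CDK4 and CDK6, was higher, with 70.4 and 94.4 FPKM against 22.0 in HSC, and so was Myc, with 82.4 and 70.1 against 31.3. Inhibitors of cyclin-dependent kinases differed in direction, since Cdkn1b had 9.92 and 6.06 FPKM in spleen Ter against 28.7 in HSC, and Cdkn1a 23.4 and 6.12 against 44.5. Among 20 DNA methylation and polycomb genes, 12 were lower and 1 was higher, with a median of -1.34. Dnmt1, the maintenance methyltransferase, had 4.16 and 8.87 FPKM against 75.6, and Ezh2, the histone methyltransferase of polycomb, 2.46 and 2.39 against 26.0. Cbx7, a polycomb subunit, was the higher one, with 5.32 and 23.5 FPKM against 3.23 in HSC.

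Genes of growth and energy were mostly lower or level. Of 28 ribosome assembly genes, 15 were lower and none was higher, with a median of -1.11. With library A alone 19 of 27 recovered were lower and with library B alone 11, against 42.1% and 30.3% of all recovered genes. After scaling by the median of ratios the ribosome assembly median was -0.71 and that of glycolysis -0.49, against -0.15 for all genes. Against the columns labelled CMP and MEP, ribosome assembly genes had medians of -1.45 and 1.11, and glycolysis genes of -1.59 and -1.39. Ncl, nucleolin, had 39.0 and 42.5 FPKM in spleen Ter against 153.9 in HSC, while Nhp2 was level at 62.9 and 58.4 against 60.5. Of 79 ribosomal protein genes, 36 were lower and 0 higher, with a median of -0.86. Of 18 glycolysis genes, 9 were lower and none was higher, with a median of -0.93; Gpi1 had 34.0 and 30.2 FPKM against 118 in HSC, and Eno1, within 2-fold as a mean, 79.3 and 90.2 against 43.0. All 8 subunit genes of mitochondrial DNA that were compared were lower, with a median of -3.01, and the other 5 of 13 were set aside. Against the columns labelled CMP and MEP, which are in the number format of spleen Ter, the same 8 genes had medians of -1.62 and 0.1. Chromosome M genes held 2.39% of FPKM in spleen Ter and 12.7% in HSC. Among them mt-Co1, a cytochrome oxidase subunit, averaged 974.7 FPKM in spleen Ter and 8339 in HSC, and mt-Co3 had 12.6 and 8.51 FPKM against 3294. In the other columns mt-Co3 was 1504 FPKM in CLP and 662 in the CD45+ control but 8.72 in CMP, 3.35 in MEP and 38.9 in liver Ter, so its level went with the number format.

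Receptors for growth factors of the blood were lower for 11 of 18 and higher for 2, with a median of -1.11, and of -1.76 and -0.71 with library A or B alone. Epor, the erythropoietin receptor, was higher, with 3.69 and 2.87 FPKM in spleen Ter against 0.682 in HSC, and so was Il5ra, with 1.54 and 4.31 against 0.208. Csf2rb2, the mouse IL-3 receptor beta chain, had 0.761 and 2.52 FPKM against 16.5. Of 18 homing and adhesion genes, 4 were higher and 5 were lower, against 14.4% and 33.0% of all compared genes. The median of this list was -0.13, and it was 0.30 after scaling by the median of ratios and 0.01 after quantile normalization. With library A or B alone it was -0.35 and -0.03. S1pr1, the receptor by which lymphocytes leave tissues, averaged 70.6 FPKM in spleen Ter and 9.02 in HSC, and Cxcr4, which holds stem cells in the marrow, 18.9 and 33.3 against 165.

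Secreted signals were mixed. Of 17 chemokine genes, 9 were higher and 4 were lower, with a median of 1.13, and of 0.64 and 1.17 with library A or B alone and 0.68 among genes measured in both number formats. Cxcl2, which attracts neutrophils (chromosome 5, 90903871 to 90905938), had 492 and 143 FPKM in spleen Ter, against 7.97 in HSC, a difference of 5.15. Ccl3 was lower, with 136 and 70.9 FPKM against 364, and so was Ccl9, with 11.5 and 18.4 against 72.2. Of 15 inflammatory cytokine genes, 4 were higher and 3 were lower, with a median of 0.23, and of -0.28 and 0.05 with library A or B alone. Il1b had 431 and 236 FPKM in spleen Ter against 18.7 in HSC, a difference of 4.08, and Ifng 15.6 and 11.6 against 1.77. Il6 went the other way, with 0.818 and 0.878 FPKM against 11.7. For Il1b and Il6 the 2 libraries lay on the same side of HSC.

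Genes linked to immune suppression stood at 7 higher and 5 lower of 19, with a median of -0.06 that was 0.36 after either scaling and 0.09 and 0.16 with library A or B alone. Arg2, a mitochondrial arginase, had 10.3 and 3.61 FPKM in spleen Ter against 0.110 in HSC, a difference of 2.84. Il10 had 3.59 and 7.45 FPKM against 1.14, and Cd274, which encodes PD-L1, was level at 10.76 and 13.6 against 10.5. Tgfb1 was lower, with 6.45 and 10.58 FPKM against 55.7, a difference of -2.58. Of 12 TGF-beta pathway genes, 1 was higher and 3 were lower, against 14.4% and 33.0% of all compared genes. The TGF-beta median was -0.15, and it was 0.26 after scaling by the median of ratios and 0.29 after quantile normalization. It was -0.84 with library A alone, with 5 lower, and -0.01 with library B alone, with 3 lower. Eng, a co-receptor of endothelial and stem cells, had 0.229 and 0.0679 FPKM against 15.6. Of the artemin pathway, which includes a neurotrophic factor and its receptors, 2 genes passed the minimum level and both were lower: Gfra1 had 0.0121 and 0.0126 FPKM, 1 fragment in each library, against 11.9 in HSC, and Gfra2 0.382 and 4.29 against 28.7. Gfra3 and Ret, the receptor pair of artemin, were under 1 FPKM in spleen Ter and in HSC, and Artn itself was not analysed here.

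Of 24 immediate early genes, 4 were higher and 7 were lower, with a median of -0.38, and of 0.06 after scaling by the median of ratios and -0.34 and -0.69 with library A or B alone. Junb averaged 832.1 FPKM in spleen Ter and 226.1 in HSC, whereas Jun had 88.8 and 74.2 FPKM against 607.3, a difference of -2.88. Of 23 interferon-stimulated genes, 2 were higher and 10 were lower, with a median of -0.98, with 14 lower in library A alone (median -1.43) and 7 in library B alone (median -0.62). The higher ones were Rsad2, which encodes viperin, with 132 and 16.6 FPKM against 8.17, and Isg15, with 104 and 25.3 against 29.6, where library B was below HSC. Of 15 BCL2 family genes, 3 were higher and 3 were lower, with a median of 0.03, and of -0.01 and 0.12 with library A or B alone. Beside the immediate early, interferon and BCL2 counts stand 14.4% higher and 33.0% lower over all compared genes. Bak1, a pore-forming activator of cell death, had 1.07 and 1.74 FPKM against 50.2, a difference of -4.41; Bax, its close relative, had 32.3 and 35.2 against 14.2.

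**Figure D4:**
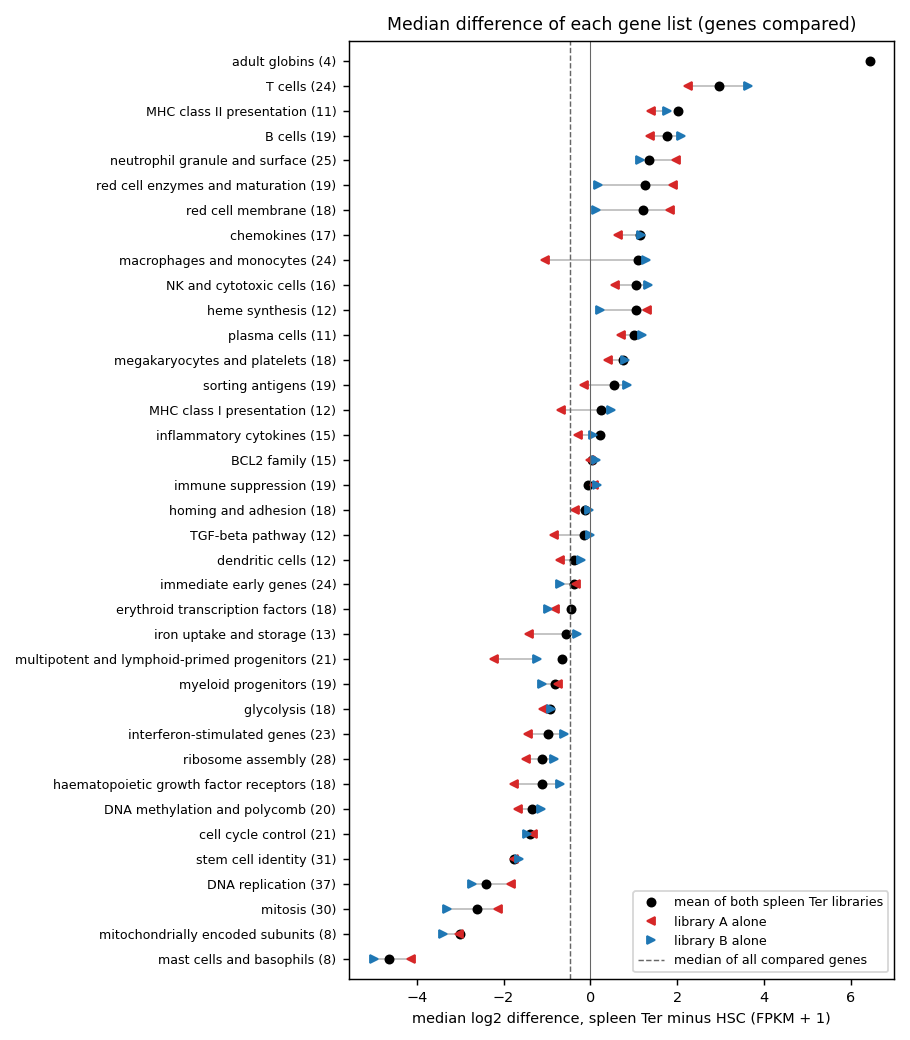
Median log2 difference of spleen Ter minus HSC for each gene list with at least 3 compared genes, from the mean of both spleen Ter libraries, from library A alone and from library B alone, with the median of all compared genes (-0.48) as a dashed line. Adult globins (6.43) and T cell genes (2.95) lie farthest to the right and mast cell and basophil genes (-4.63) farthest to the left. Library A and library B lie on opposite sides of 0 for macrophage genes (-1.05 and 1.27). They also do so for MHC class I, sorting antigen, inflammatory cytokine and BCL2 family genes.

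The 15 protein-coding genes with the largest differences in each direction, among those with at least 5 FPKM in the higher column, included 8 of other kinds. Lars2, a mitochondrial leucyl-tRNA synthetase (chromosome 9, 123366927 to 123462666), averaged 201.4 FPKM in spleen Ter and 1.39 in HSC, a difference of 6.40. Its mean could not be divided into libraries A and B, and whether its difference goes with the number format was not tested. Dapl1 had 59.3 and 39.9 FPKM in spleen Ter and was listed at 0 in HSC. Adgrg1, an adhesion receptor of stem and progenitor cells (chromosome 8, 94974751 to 95014217), had 0.916 and 0.989 FPKM against 166.8 in HSC, a difference of -6.43, and Cplx2 had 0.0403 and 0.335 against 57.2. Tpm3-rs7 had 1.89 and 1.67 FPKM against 179 in HSC, and was 149 in the column labelled MEP. Rpl23a, Hmga1b and Ube2v1 were also among the 15 that were lowest, with Rpl23a at 8.91 and 6.41 FPKM in spleen Ter against 2223 in HSC. Like mt-Co3, these 3 genes were higher in HSC, CLP and the CD45+ control than in all 4 other columns: Hmga1b was 71.4 FPKM in CLP and 16.6 in the control, and at most 1.14 in liver Ter, MEP and CMP. Rpl23a and Ube2v1 share 62.3% and 69.1% of their exon bases with another gene.

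By class of gene, protein-coding genes were higher for 9.95% and lower for 31.1% of 11068. Of 1157 processed pseudogenes, 102 were higher and 778 were lower (67.2%). Long intergenic RNAs leaned the other way, with 98 of 280 higher (35.0%) and 61 lower, as did antisense RNAs, with 98 of 273 higher and 51 lower. Among protein-coding genes the median exon length was 2579 bases for those higher, 4977.5 for those lower and 4311 for those within 2-fold.

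The 246 genes set aside would all have counted as far lower in spleen Ter. Their median was 0.134 FPKM in spleen Ter and 24.6 in HSC, and they held 0.0502% of FPKM in spleen Ter and 15.2% in HSC. They comprise 123 processed pseudogenes, 56 protein-coding genes, 15 mitochondrial tRNAs and 14 small nucleolar RNAs, and 20 of them are on chromosome M, among them 5 of 13 mitochondrial subunit genes. One of these is mt-Atp8, with 1 fragment in library A and none in library B, against 7136 FPKM in HSC. Of 242 that are annotated, 64 (26.4%) share most of their exon bases with another gene, against 2.4% of compared genes. A gene was set aside where the highest of the Ter, MEP and CMP columns was at most 5% of the lowest of HSC, CLP and the control, and that lowest was at least 5 FPKM. Rpl28-ps3, at 4.95%, was the nearest inside this limit and Gm7289, at 5.01%, was among the nearest outside. No gene showed the converse pattern.

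**Figure D5:**
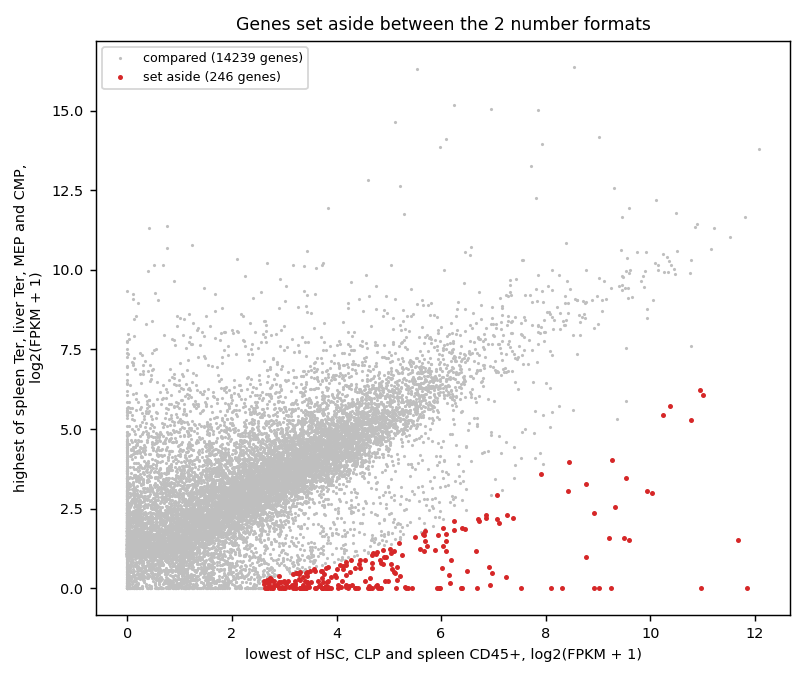
Highest value among the Ter, MEP and CMP columns (vertical) against the lowest among HSC, CLP and the CD45+ spleen control (horizontal) for each gene, both as log2(FPKM + 1). The 246 genes set aside lie along the bottom at the right, where the highest value is at most 5% of the lowest, and the 14239 genes compared lie above and to the left.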

How the data were processed

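RNA was extracted with Trizol and a QIAGEN kit and libraries were made with the Illumina TruSeq RNA kit, per the labels' protocols. The deposited table gives FPKM, made by the authors, as 1 mean of 2 samples for each of 7 groups. The genome build is mm10, per the submitters' processing notes; the sources used here do not give the aligner, counter or annotation. The unit was read from the values. Of 49588 lines, 2 without a gene name and 3 identical repeats were left out, and 49324 of 49583 genes were matched by ID to GENCODE M21 for symbols, types, coordinates and exon lengths.

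From the deposited FPKM the log2 difference of group means was computed with a pseudocount of 1. Each spleen Ter mean was divided into whole fragments of 2 libraries from its digits and the exon length, which was searched for 2194 genes. Of 11500 genes with at least 1 FPKM in spleen Ter, 11032 (95.9%) gave 1 solution. The way of recovery was chosen after the data were seen. For HSC the mean could not be divided, so no test was made and its precision is unknown. Promoters were matched by symbol. Named genes are the 15 in each direction with the largest difference at 5 FPKM or more (protein-coding, measured in both number formats, no antigen receptor segments or unnamed gene models), and in each of 39 lists (685 genes) the highest, the most and least different and those against the list; further members are given as examples. Some genes that this rule names are not reported here. The members and lists were chosen with earlier results of these data known. Python 3.11.15, pandas 2.3.3, NumPy 2.4.6 and Matplotlib 3.10.9 were used.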

Additional observations from a re-analysis of the deposited data

How the results depend on the processing

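With a pseudocount of 5 the genes higher in spleen Ter numbered 915, with 2029 lower; with a minimum of 5 FPKM there were 1235 and 3111, with protein-coding genes alone 1101 were higher, and after quantile normalization 3091 and 3042. The median over all genes was 0.0 with no minimum and -0.04 after quantile normalization. Heme synthesis genes higher numbered 3 with a pseudocount of 5 and 11 after quantile normalization. Red cell membrane genes higher numbered 7 with a pseudocount of 5, 7 with a minimum of 5 FPKM and 2 among genes measured in both number formats. Stem cell identity genes lower numbered 12 with a pseudocount of 5 and 14 with a minimum of 5 FPKM. The construction of the larger pseudocount and of the stricter minimum lowers such counts; otherwise the cause was not tested.

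With 1 spleen Ter library left out, genes higher ranged from 3 to 8 for heme synthesis, 2 to 13 for red cell membrane, 7 to 11 for red cell enzymes, 10 to 17 for neutrophils and 4 to 6 for MHC class II. The macrophage median was -1.05 without library B and 1.27 without library A. The adult globins have no such value. Under the other settings 148 of 164 counts and medians of the main results, 342 of 416 list medians and 226 of 325 values of the most different genes stayed within 1.5 times of the reported count, or within the spread between the libraries. With 1 library left out, 23 of 28, 54 of 74 and 43 of 48 did so, the last over the 24 of these genes whose libraries could be recovered. That spread comes from the same 2 libraries, so the further apart they are, the more easily a value stays within it. With library A left out the red cell membrane median went from 1.22 to 0.12 and still counted as within. For medians and single genes these tallies therefore cannot show that a value is stable when a library is left out. The adult globin median and the genes without recovered libraries have no such spread. For these only an unchanged value was counted as within.

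No paired analysis was possible because the HSC value is a mean without replicates and the recovered libraries carry no number. A low fragment count limits genes near 0 in spleen Ter, and the unknown HSC depth limits all.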
